A study of Mus musculus with 8 samples.

Results

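The genes described here are Cntfr, Lifr and Il6st, which encode receptor chains for the cytokines CNTF and LIF, together with Stat3, Stat5a, Stat5b, Socs2 and Socs3, which act downstream of such receptors. They are 8 of the 36536 genes in the count tables, found by matching these symbols in the NCBIM37 mouse annotation to the Ensembl identifiers of the tables. The members were chosen by measured values, in that Cntfr and Stat5a were higher in GFP+ cells at P6 than at P1, so the levels of these 2 genes in GFP+ cells are given below as values without a test. The same holds for every member in the GFP+ comparison of P6 with P1.

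The data are RNA-seq counts from the cochleas of LFng-GFP BAC transgenic mice (B6;FVB-Tg(Lfng-EGFP)HM340Gsat/Mmucd), dissociated and sorted by FACS on postnatal day 1 (P1) or 6 (P6) with no culture and no treatment. There were 4 groups of 2 libraries each, namely P1 GFP+, P1 GFP-, P6 GFP+ and P6 GFP-, and all animals carried the transgene. The GFP+ cells were the brightest fraction of the sort, in which the BAC reporter marks most kinds of supporting cells of the organ of Corti but not the inner pillar cells, and the GFP- cells were a mixture of other cochlear cells. Cells with low GFP were in neither fraction. At P1 the tissues around the sensory epithelium (stria vascularis, lateral wall and Reissner's membrane) were taken off, whereas at P6 a part of them stayed, so age and dissection cannot be told apart in these samples.

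CNTF binds its own receptor chain, encoded by Cntfr, and signals through a complex of the LIF receptor (Lifr) and gp130 (Il6st). LIF needs only the last pair. The receptors carry Jak kinases, which phosphorylate Stat3 and, for other cytokine and growth factor receptors, Stat5a and Stat5b, and the Stat proteins then enter the nucleus and bind DNA. Socs2 and Socs3 are among the genes that Stat proteins switch on, and their products dampen the same signals: Socs3 binds gp130, whereas Socs2 is best known as a brake on growth hormone receptor signaling. In nervous tissue, CNTF and LIF are known as survival factors for neurons and as signals to glia.

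Gene counts summed to between 17769024 and 67695039 per library. Levels are given as CPM, a count scaled to library size (counts per 1000000 gene counts). Levels of different genes are compared only as RPKM, which is CPM per kilobase of exon. In each of the 4 GFP+ libraries the 6 supporting cell markers (Sox2, Prox1, Fgfr3, Hes5, Lfng and Lgr5) summed to between 4209 and 6758 CPM, against 100.2 to 159.7 CPM in the GFP- libraries. None of the 6 was at 0 in any library. Hair cell markers (Myo7a, Myo6, Pou4f3, Atoh1, Otof and Slc17a8) were also present in the GFP+ libraries. Their sum was at 160.1% and 183.6% of the GFP- mean of the same age at P1, and at 110.8% and 134.6% at P6. Otof was at 170.9 CPM in P1 GFP+ against 17.4 CPM in P1 GFP- cells, whereas Slc17a8 was at 4.50 against 4.89 CPM. Of these 6 genes, 5 were higher in P6 GFP+ replicate 2 than in replicate 1. The P6 GFP+ libraries were unlike each other in the markers of other cells: replicate 2 was higher than replicate 1 for 6 of 6 macrophage genes, 6 of 6 endothelial genes, 5 of 6 fibrocyte and mesenchyme genes and 4 of 4 melanocyte genes, and lower for 5 of 6 supporting cell genes. The fold changes of the members and of the named pathway genes in the P6 GFP+ group are therefore given with and without replicate 2. In such bulk samples, fewer cells of a type and less RNA per cell cannot be told apart.

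The members lie at the following places in NCBIM37, which is the mm9 build of the count tables. Cntfr is on the reverse strand of chr4:41604529-41644121 and Lifr on the forward strand of chr15:7079559-7147489. Il6st is on the forward strand of chr13:113265216-113297068. Socs2 is on the reverse strand of chr10:94847996-94879814 and Socs3 on the reverse strand of chr11:117827393-117831361. The 3 Stat genes adjoin each other on chromosome 11, with Stat5b on the reverse strand at chr11:100642045-100712038, Stat5a on the forward strand at chr11:100720665-100746483 and Stat3 on the reverse strand at chr11:100746412-100800854. The starts of Stat5b and Stat5a are separated by 8626 bases, and the 3′ ends of Stat5a and Stat3 overlap by 72 bases, where reads belong to either gene unless the counting used strand, which the sources used here do not state.

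Stat5a and Stat5b are close paralogs, and how far their reads can be told apart bears on the results below. Their coding sequences were identical at 90.7% of 2294 aligned bases. The longest identical stretch was 324 bases, and its first 100 bases, positions 571 to 670 of the Stat5a coding sequence, are shown because a read of this length from within it fits both genes:
Stat5a and Stat5b, shared stretch: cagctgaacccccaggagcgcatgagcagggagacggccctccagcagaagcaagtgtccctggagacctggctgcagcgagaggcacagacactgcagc
Such stretches were rare among protein-coding transcripts, the only ones searched. Of all windows of 100 bases along these transcripts, 6.31% of those in Stat5a and 4.87% of those in Stat5b were found in the other gene. In Socs2, 3.41% were found in Gm9847, and none of those in the other 5 members were found in another gene with such transcripts. Of 102 windows along the Cntfr transcripts, 6 matched more than 1 place on chromosome 4, where a read would be listed as not unique and not counted.

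Promoter windows of RefSeq (250 bases before to 50 after a transcript start, from a table built on GRCm38.p6) were placed in NCBIM37 by exact match for the members whose levels moved most. In the Socs3 window, on the reverse strand at chr11:117830631-117830930, the capitals mark the palindrome TTCNNNGAA, the core of sites that Stat proteins bind, which reads the same on both strands:
Socs3: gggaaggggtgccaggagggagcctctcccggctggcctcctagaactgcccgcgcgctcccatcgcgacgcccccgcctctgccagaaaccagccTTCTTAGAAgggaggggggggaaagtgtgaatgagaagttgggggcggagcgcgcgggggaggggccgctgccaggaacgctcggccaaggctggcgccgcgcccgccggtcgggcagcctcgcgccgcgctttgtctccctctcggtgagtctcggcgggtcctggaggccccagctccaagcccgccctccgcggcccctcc
The Stat5a window, on the forward strand at chr11:100721548-100721847, and a Cntfr window, on the reverse strand at chr4:41643020-41643319, are shown because these 2 genes chose the set, and neither holds the palindrome:
Stat5a: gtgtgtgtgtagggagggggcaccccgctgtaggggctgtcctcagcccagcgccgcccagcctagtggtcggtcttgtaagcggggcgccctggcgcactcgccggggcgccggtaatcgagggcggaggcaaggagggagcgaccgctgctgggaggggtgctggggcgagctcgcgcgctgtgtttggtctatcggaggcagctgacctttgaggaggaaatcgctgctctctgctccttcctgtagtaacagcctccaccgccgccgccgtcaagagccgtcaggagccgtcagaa
Cntfr: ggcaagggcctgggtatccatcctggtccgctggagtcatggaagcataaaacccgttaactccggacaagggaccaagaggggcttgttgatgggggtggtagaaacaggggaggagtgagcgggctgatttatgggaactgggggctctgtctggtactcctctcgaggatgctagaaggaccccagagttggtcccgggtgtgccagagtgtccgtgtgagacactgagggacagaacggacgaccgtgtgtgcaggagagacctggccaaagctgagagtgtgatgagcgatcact
The palindrome in the Socs3 window began 154 bases before the RefSeq start. It was present in at least 1 window of 1 of the 7 members with an entry (all but Socs2), and in that of 6 of 44 genes of the pathway lists used below (Icam1, Cish, Gfap, Il7r, Prlr and Bcl6). Among all genes of the table the share was 9.55%, and among all 32851 windows it was 8.30%. These are matches of letters in a short window, and binding was not measured.

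Cntfr had the largest difference between fractions of the 8 members at P1. In P1 GFP+ cells it stood at 3.16 and 3.17 CPM (replicates 1 and 2), and in P1 GFP- cells at 105.6 and 100.7 CPM. In P6 GFP+ cells it stood at 41.3 and 54.3 CPM, and in P6 GFP- cells at 109.5 and 119.1 CPM. All 4 GFP+ libraries were thus below all 4 GFP- libraries at both ages, and the P6 GFP+ libraries lay far above the P1 GFP+ libraries. The log2 fold change of P6 over P1 in GFP+ cells was 4.0 ± 0.20 (SE), and that of GFP+ over GFP- cells was -4.92 ± 0.11 at P1 and -1.26 ± 0.18 at P6. Without P6 GFP+ replicate 2, these 2 values at P6 were 3.82 against P1 and -1.45 against GFP- cells. In GFP- cells, Cntfr differed little with age, by a log2 fold change of 0.34 ± 0.10, and did not pass the test (adjusted p = 0.0598, edgeR).

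**Figure D1:**
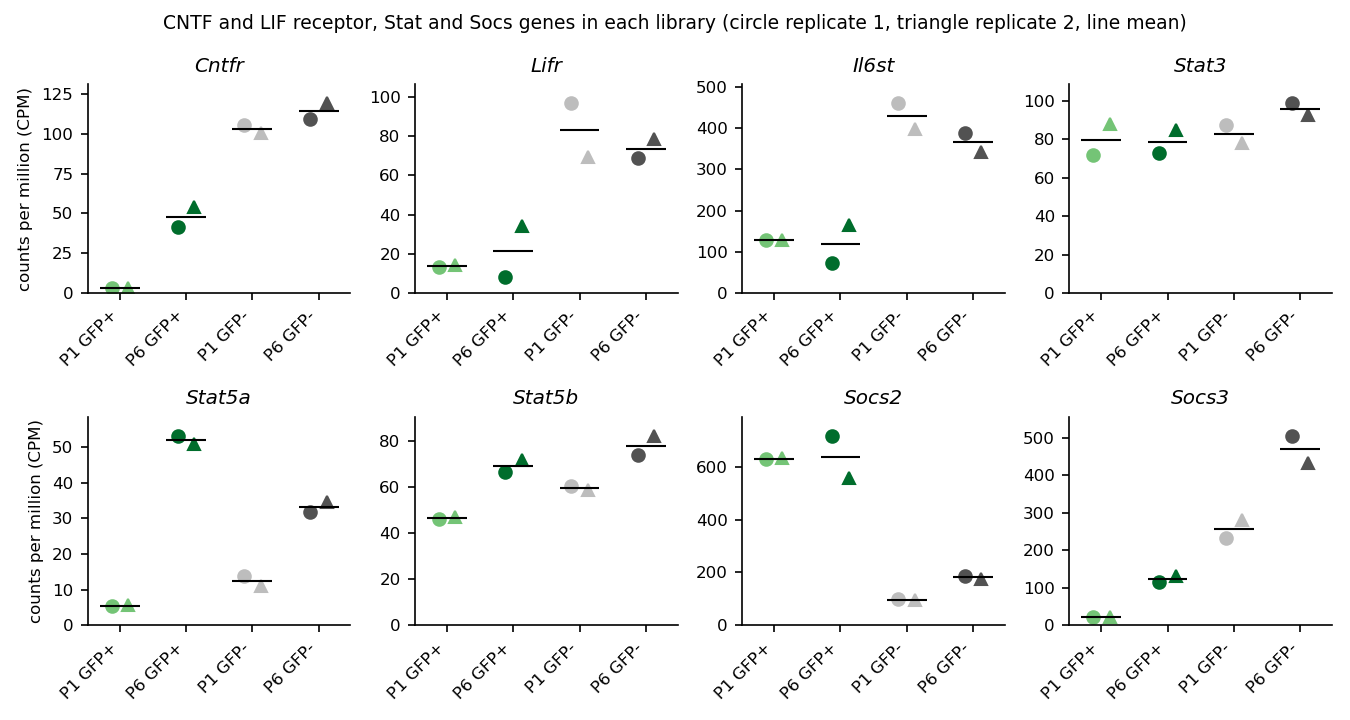
Level of each of the 8 genes in each of the 8 libraries, in CPM on an axis from 0, with circles for replicate 1, triangles for replicate 2 and a line for the mean of 2 libraries. Cntfr and Socs3 are lower in every GFP+ than in every GFP- library, Socs2 is higher, Stat5a is highest in the P6 GFP+ libraries, and the P6 GFP+ libraries are far apart for Lifr and Il6st.

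The other 2 receptor chains were also lower in GFP+ cells, but without an increase with age that both replicates shared. Lifr, the LIF receptor chain, stood at 13.3 and 14.6 CPM in P1 GFP+ cells and at 96.7 and 69.5 CPM in P1 GFP- cells. At P6 it stood at 8.10 and 34.5 CPM in GFP+ cells and at 68.9 and 78.4 CPM in GFP- cells. One P6 GFP+ library was thus below and the other above both P1 GFP+ libraries. Lifr was lower in GFP+ than in GFP- cells by a log2 fold change of -2.47 ± 0.18 (SE) at P1 (adjusted p = 0.000127, edgeR). At P6 the value was -1.80 ± 0.60, which did not pass the test (adjusted p = 0.0686, edgeR). With P6 GFP+ replicate 2 left out the P6 value was -3.16, and with replicate 1 left out it was -1.07.

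Il6st encodes gp130, the chain that all cytokines of this family share, and had the highest group means per length of the 3 receptor chains. It stood at 128.5 and 129.2 CPM in P1 GFP+ cells and at 459.7 and 397.4 CPM in P1 GFP- cells. At P6 it stood at 72.1 and 164.7 CPM in GFP+ cells and at 388.5 and 341.8 CPM in GFP- cells. The GFP+ and GFP- libraries did not overlap at either age, and the P6 GFP+ libraries lay on either side of the P1 GFP+ libraries. Il6st was lower in GFP+ cells by a log2 fold change of -1.63 ± 0.11 (SE) at P1 (adjusted p = 0.000101, edgeR) and of -1.64 ± 0.39 at P6, where it missed the threshold of 0.01 (adjusted p = 0.0255, edgeR). The P6 value was -2.32 without GFP+ replicate 2 and -1.13 without replicate 1. The DESeq2 test called both Lifr (adjusted p = 0.00769) and Il6st (adjusted p = 0.000391) lower at P6.

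In GFP- cells neither chain passed the test between ages, with log2 fold changes of 0.02 for Lifr and -0.04 for Il6st, and the direction of the Lifr value turned to -0.17 when libraries were scaled by their totals. In GFP+ cells the Lifr value of P6 over P1 was 0.70 ± 0.62 (SE) with both P6 libraries and -0.65 without replicate 2. That of Il6st was -0.04 ± 0.36 with both and -0.71 without replicate 2. The Lifr value thus turned in sign without this library, and that of Il6st was near 0 with it, whereas the Cntfr level was higher at P6 in both libraries.

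The markers of other cells that stood apart in P6 GFP+ replicate 2 can be set beside the receptors on a common scale, as a percentage of the mean of the GFP- libraries of the same age. In P6 GFP+ replicates 1 and 2, Lifr was at 11.0% and 46.8%, Il6st at 19.8% and 45.1%, and Cntfr at 36.1% and 47.5%. The summed fibrocyte and mesenchyme markers were at 11.0% and 20.6%, the macrophage markers at 6.80% and 15.4%, and the melanocyte markers at 4.52% and 14.4%. Endothelial markers were at 43.8% and 164.6%, and Schwann cell markers at 90.2% and 171.5%. Single genes could lie far from the sum of their list. Fibrocyte and mesenchyme genes ran from 3.67% to 124.8% in replicate 1 and from 15.4% to 107.0% in replicate 2, with Lum the highest. Schwann cell genes ran from 37.6% to 372.2% and from 76.0% to 334.5%, with Sox10 the highest. Sox10 was also above the GFP- level in both P1 GFP+ libraries. Replicate 2 was therefore higher for these 5 marker lists and for all 3 receptor chains. At P1 the corresponding GFP+ values were much alike between replicates, 3.07% and 3.08% for Cntfr, 16.0% and 17.5% for Lifr, and 30.0% and 30.1% for Il6st. P1 macrophage markers were at 4.8% and 3.68%, and fibrocyte and mesenchyme markers at 4.03% and 3.68%. The part of the other cells in the receptor levels was not tested.

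**Figure D2:**
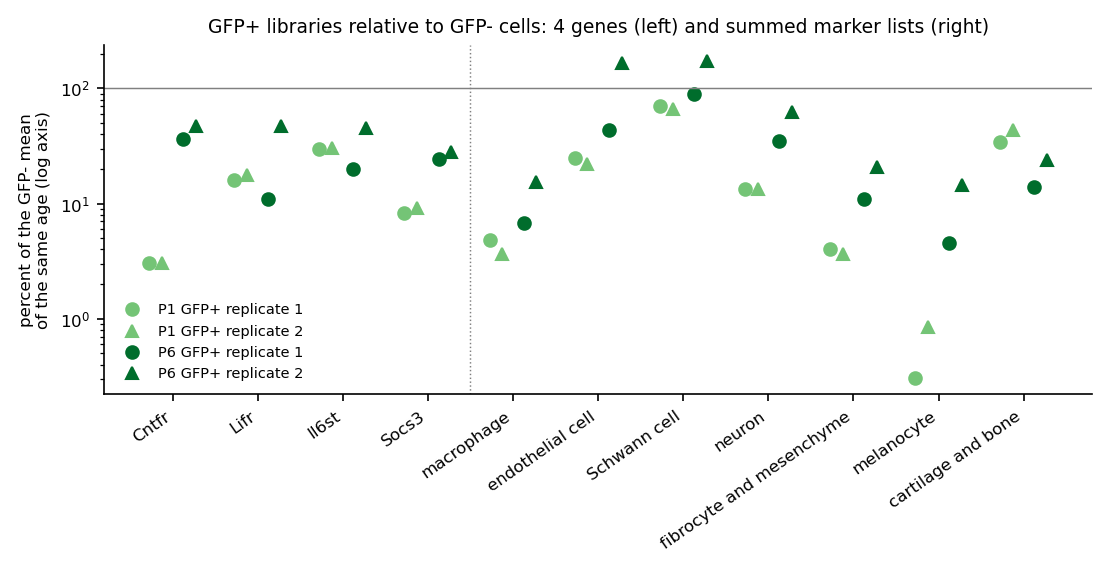
Level in each GFP+ library as a percentage of the mean of the 2 GFP- libraries of the same age, on a log axis, for 4 genes (left of the dotted line) and for summed marker lists of other cell types (right). The line at 100 marks the GFP- mean. P6 GFP+ replicate 2 (dark triangles) is above replicate 1 (dark circles) for all 4 genes and all 7 marker lists shown. Cntfr, Socs3 and every marker list but cartilage and bone are higher in both P6 libraries than in both P1 libraries.

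The 3 Stat genes behaved differently from each other. Stat3, the main Stat factor below gp130, varied little: it stood at 72.2 and 87.8 CPM in P1 GFP+ cells, 87.6 and 78.0 CPM in P1 GFP- cells, 72.8 and 84.9 CPM in P6 GFP+ cells and 98.8 and 93.0 CPM in P6 GFP- cells. The fractions overlapped at P1 and did not at P6. Its log2 fold change of GFP+ over GFP- cells was 0.05 ± 0.12 (SE) at P1 (adjusted p = 0.743, edgeR), where the sign turned to -0.05 with scaling by library totals. At P6 it was -0.29 ± 0.16 (adjusted p = 0.207, edgeR), and -0.38 without GFP+ replicate 2. In GFP- cells it was 0.40 ± 0.12 for P6 over P1 (adjusted p = 0.0525, edgeR). None of the 3 passed the test.

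Stat5a was the only member below the GFP- level in both GFP+ libraries at P1 and above it in both at P6. It stood at 5.35 and 5.58 CPM in P1 GFP+ cells, below the 13.7 and 11.1 CPM of P1 GFP- cells. It stood at 53.2 and 50.9 CPM in P6 GFP+ cells, above the 31.8 and 34.5 CPM of P6 GFP- cells. Neither age had overlapping groups, and the level in both fractions was higher at P6. The log2 fold change of GFP+ over GFP- cells was -1.08 ± 0.18 (SE) at P1 and 0.64 ± 0.15 at P6, and that of P6 over P1 in GFP+ cells was 3.34 ± 0.15, with no test because these values chose the gene. The last 2 values were 0.70 and 3.41 without P6 GFP+ replicate 2. In GFP- cells, which the choice did not use, Stat5a rose between P1 and P6 by 1.61 ± 0.15 on the log2 scale (adjusted p = 0.00119, edgeR). This call was lost when either P6 GFP- library was left out, with adjusted p = 0.0124 without replicate 1 and 0.0129 without replicate 2 (edgeR), while the log2 fold change stayed at 1.64 and 1.59.

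Stat5b, its paralog, moved less. It stood at 46.3 and 47.3 CPM in P1 GFP+ cells and 60.6 and 58.9 CPM in P1 GFP- cells. At P6 it stood at 66.8 and 72.0 CPM in GFP+ cells and 73.9 and 82.4 CPM in GFP- cells. GFP+ libraries were below GFP- libraries at both ages, by a log2 fold change of -0.25 ± 0.08 (SE) at P1 (adjusted p = 0.0473, edgeR) and of -0.18 ± 0.15 at P6 (adjusted p = 0.400, edgeR). In GFP- cells P6 was above P1 by 0.58 ± 0.10 (adjusted p = 0.0112, edgeR), just short of the threshold. The corresponding difference in GFP+ cells was 0.66 ± 0.11. Without P6 GFP+ replicate 2, the P6 difference between fractions was -0.21 and that between ages 0.64. The ratio of Stat5a to Stat5b, per length, was 0.090 and 0.092 in P1 GFP+ cells and 0.176 and 0.147 in P1 GFP- cells. It was 0.618 and 0.548 in P6 GFP+ cells and 0.335 and 0.325 in P6 GFP- cells, so that Stat5b was above Stat5a in all 8 libraries and the distance was smallest in P6 GFP+ cells.

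The 2 Socs genes lay on opposite sides of the sort. Socs2 stood at 627.4 and 632.9 CPM in P1 GFP+ cells and at 101.2 and 94.4 CPM in P1 GFP- cells. At P6 it stood at 717.2 and 557.3 CPM in GFP+ cells and at 187.7 and 174.6 CPM in GFP- cells. Every GFP+ library was above every GFP- library. Socs2 was higher in GFP+ cells by a log2 fold change of 2.79 ± 0.10 (SE) at P1 (adjusted p = 1.5e-05, edgeR) and of 1.81 ± 0.22 at P6 (adjusted p = 0.00434, edgeR). In GFP+ cells the P6 libraries lay on either side of the P1 libraries and the log2 fold change was 0.11 ± 0.19. Without P6 GFP+ replicate 2 it was 0.31, and that between fractions at P6 was 2.0. In GFP- cells Socs2 rose by 1.08 ± 0.11 between P1 and P6 (adjusted p = 0.00156, edgeR), a call that was lost without P6 GFP- replicate 1 (adjusted p = 0.0126).

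Socs3, the brake on gp130 signaling, stood at 21.3 and 23.5 CPM in P1 GFP+ cells and at 234.2 and 281.2 CPM in P1 GFP- cells. At P6 it stood at 115.3 and 132.8 CPM in GFP+ cells and at 506.1 and 433.1 CPM in GFP- cells. The groups did not overlap, and the order was P1 GFP+, P6 GFP+, P1 GFP- and P6 GFP- from low to high. Socs3 was lower in GFP+ than in GFP- cells by a log2 fold change of -3.42 ± 0.12 (SE) at P1 (adjusted p = 1.5e-05, edgeR) and of -1.93 ± 0.20 at P6 (adjusted p = 0.00249, edgeR). In GFP- cells it rose by 1.06 ± 0.15 between P1 and P6 (adjusted p = 0.00516, edgeR). This rise missed the threshold with scaling by library totals (0.87, adjusted p = 0.0116), without P6 GFP- replicate 1 (0.92, adjusted p = 0.0303) and without replicate 2 (1.21, adjusted p = 0.0128). In GFP+ cells the difference between ages was 2.56 ± 0.13, and 2.49 without P6 GFP+ replicate 2, which left the P6 difference between fractions at -2.01.

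At P6 the calls of Socs2 and Socs3 also depended on the GFP- libraries. Without P6 GFP- replicate 1 the adjusted p was 0.0301 for Socs2 and 0.0189 for Socs3, and without replicate 2 it was 0.0476 and 0.0222 (edgeR). The log2 fold changes in these fits were 1.92 and 1.74 for Socs2 and -1.75 and -2.05 for Socs3. Leaving out either GFP+ library kept both calls.

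Socs3 is also known to be switched on quickly in stressed cells, and 7 immediate early genes (Fos, Fosb, Jun, Egr1, Ier2, Atf3 and Dusp1) are therefore given beside it. Their summed level was 4668 and 3496 CPM in P1 GFP+ cells, 4871 and 5763 CPM in P1 GFP- cells, 7516 and 6761 CPM in P6 GFP+ cells and 9026 and 8276 CPM in P6 GFP- cells. It was higher in all 4 P6 libraries than in all 4 P1 libraries, as Socs3 was within each fraction. Relative to GFP- cells of the same age, the immediate early genes were at 86.9% and 78.1% in P6 GFP+ replicates 1 and 2, whereas Socs3 was at 24.6% and 28.3%. Their part in the Socs3 difference with age was not tested.

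**Figure D3:**
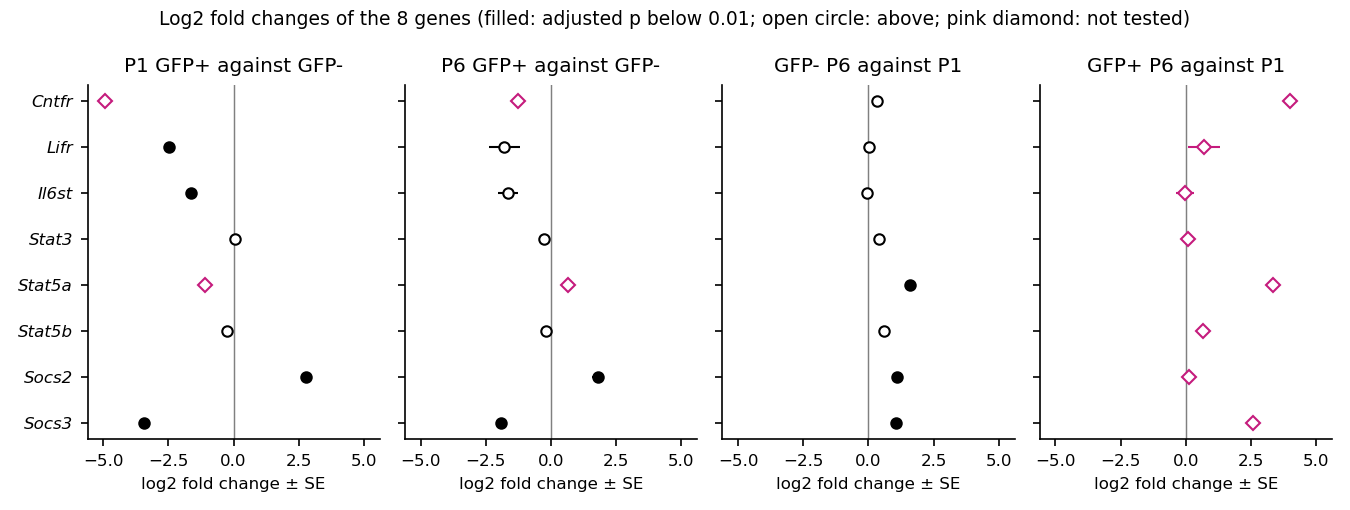
Log2 fold change ± SE of each of the 8 genes in the 4 comparisons, each fitted with edgeR on its 4 libraries. Filled circles are below an adjusted p of 0.01, open circles are above it, and pink diamonds are values without a test. Socs2 is higher and Socs3 lower in GFP+ cells at both ages, and in GFP- cells Stat5a, Socs2 and Socs3 are the members past the threshold between ages.

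Counts of calls are read against all genes tested. All 8 members passed the filter on low counts in each comparison. At P1, 1 member (Socs2) was called higher and 3 (Lifr, Il6st and Socs3) lower in GFP+ cells of the 6 tested, while 16.6% of all 18682 genes tested were called higher and 20.7% lower, 37.3% in all. Groups of 2 libraries that do not overlap in CPM were common among all genes tested, at 79.3% of genes at P1, 73.4% at P6, 69.4% between ages in GFP- cells and 70.3% between ages in GFP+ cells. With a fold change above 4 required as well, Socs2 was higher and Lifr and Socs3 were lower, against 17.8% of all genes in either direction. No tested member met both criteria at P6 or in GFP- cells between ages, where 7.98% and 1.85% of all genes did. At P6, 1 member (Socs2) was called higher and 1 (Socs3) lower of the 6 tested, with 7.72% and 5.19% of all 18294 genes called, 12.9% in all. In GFP- cells 3 members (Stat5a, Socs2 and Socs3) of the 8 tested were called higher at P6, against 5.04% of 18920 genes higher and 2.34% lower, 7.38% in all. No member was called lower there by edgeR or DESeq2, and none had a negative value with an unadjusted p below 0.05. The median log2 fold change of the 8 members was 0.49 in this comparison, beside -0.02 over all genes tested. Scaling by library totals in place of TMM shifted the median of all genes by -0.19 in GFP- cells between ages and by -0.11 at P1 between fractions.

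The order of the members per length changed with fraction and age. In P1 GFP+ cells Socs2 was the highest with 66.1 ± 0.41 RPKM (SD, n = 2) and Il6st followed with 24.7 ± 0.10, then Stat5b, Stat3 and Socs3 between 7.76 and 8.45, whose neighbours overlapped. Lifr (1.35 ± 0.09), Cntfr (1.14 ± 0.0025) and Stat5a (0.766 ± 0.024) were lowest and did not overlap each other. In P6 GFP+ cells Socs2 was again the highest with 66.9 ± 11.9 RPKM, and Socs3 came next with 42.9 ± 4.29. Il6st (22.7 ± 12.6) and Cntfr (17.2 ± 3.30) overlapped. Stat5b (12.5 ± 0.67), Stat3 (8.28 ± 0.90), Stat5a (7.30 ± 0.23) and Lifr (2.06 ± 1.80) then followed without overlap between neighbours.

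In GFP- cells Socs3 led at both ages, with 89.2 ± 11.5 RPKM at P1, where it overlapped Il6st (82.3 ± 8.46), and 162.4 ± 17.9 RPKM at P6, where it did not overlap Il6st (70.1 ± 6.34). Cntfr was the third in both, with 37.1 ± 1.26 and 41.1 ± 2.43 RPKM, and Stat5a was the lowest with 1.74 ± 0.26 and 4.65 ± 0.27 RPKM. The ratio of Socs2 to Socs3 per length was 8.92 and 8.15 in P1 GFP+ cells and 1.89 and 1.27 in P6 GFP+ cells, and lay between 0.102 and 0.131 in the 4 GFP- libraries. The ratio of Cntfr to Il6st was 0.046 in both P1 GFP+ libraries, 1.07 and 0.617 in P6 GFP+ cells and between 0.430 and 0.652 in GFP- cells. In P6 GFP+ replicate 1, Cntfr was thus at about the level of Il6st, which it was in no other library.

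**Figure D4:**
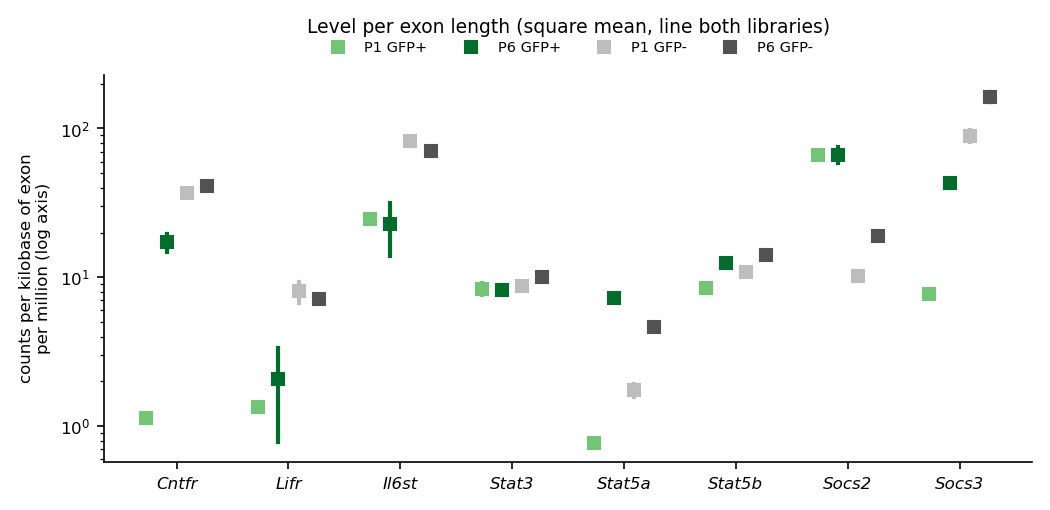
Level of each gene in the 4 groups as CPM per kilobase of exon, on a log axis, with squares for the mean and lines that span the 2 libraries. Cntfr, Stat5a and Socs3 are lowest in P1 GFP+ cells and Socs2 is at 66.1 and 66.9 in P1 and P6 GFP+ cells.

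For Cntfr, Stat5a, Socs2 and Socs3, the genes with the most similar levels over the 8 libraries were found by Pearson's r of log2(CPM + 0.5) among 13482 genes, as a description in which all genes share the libraries and their grouping. Cntfr was followed most closely by Ephx1 (r = 0.998), an epoxide hydrolase, Nab2 (0.997), a corepressor of Egr factors, and Kalrn (0.996). Genes close to Stat5a were the fucosyltransferase gene Fut8 (0.990) and Aph1c (0.989), a gamma-secretase subunit. Socs2 was followed by Kremen1 (0.997), a receptor for the Wnt antagonist Dkk1, by Cradd (0.995), an apoptosis adaptor that lies 61228 bases from Socs2, and by Fam83a (0.995). Socs3 was followed by Rab31 (0.998), Lmna (0.996) and Luzp2 (0.996). Among the members, Cntfr and Socs3 were the closest pair of those compared (r = 0.974), and Stat5a was closest to Stat5b (r = 0.896).

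The other genes of the pathway were taken from 6 lists with 61 genes in all: ligands that signal through gp130, partner receptors and Jak kinases, the other Stat factors, Socs, Pias and phosphatase brakes, Stat target genes, and receptors upstream of Stat5. At P1, 6 of the 56 that passed the filter were called higher and 22 lower in GFP+ cells. The shares of all genes tested were 16.6% and 20.7%. At P6, 3 of 59 were called higher and 8 lower, against 7.72% and 5.19% of all genes. In GFP- cells 8 of 59 were called higher at P6 than at P1 and 1 lower, against 5.04% and 2.34%. Counts of single lists further below are read against the shares of their comparison. In GFP+ cells 3 of 50 were called higher at P6 and none lower, where 2.86% of all 17213 genes tested were called higher and 1.95% lower, 4.81% in all. DESeq2 called 2 lower in that comparison, and 3 were lower at an unadjusted p below 0.05 in edgeR. The median log2 fold change of these genes was -0.74 at P1 and -0.43 at P6 between fractions, 0.29 in GFP- cells and 0.61 in GFP+ cells between ages, beside medians of all genes between -0.02 and 0.01.

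Among the 10 ligands, 7 passed the filter at P1 and none of these the test in either direction, although 2 were higher and 3 lower at an unadjusted p below 0.05, and DESeq2 called none. Cntf, the ligand of the receptor encoded by Cntfr, was at or below 0.45 CPM in all 8 libraries, and 76.9% of its windows of 100 bases are shared with Zfp91, so its count is uncertain. Lif stood at 1.59 and 0.96 CPM in P1 GFP+, 2.27 and 2.60 CPM in P1 GFP-, 3.21 and 2.85 CPM in P6 GFP+ and 1.96 and 1.51 CPM in P6 GFP- cells, and it passed the test in no comparison. Ctf1, which encodes cardiotrophin 1, was higher in GFP+ than in GFP- cells at P6, at 10.7 ± 0.92 against 3.97 ± 0.18 CPM (SD, n = 2). Its log2 fold change was 1.42 ± 0.24 (SE), with an adjusted p of 0.00998 (edgeR) that reached 0.0116 with library totals and 0.0965 and 0.10 without P6 GFP- replicate 1 or 2. The log2 fold change was 1.53 without P6 GFP+ replicate 2.

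Of the 8 partner receptors and kinases, 5 were lower in P1 GFP+ cells (Il6ra, Il11ra1, Osmr, Il27ra and Jak1) and none higher. At P6 1 was lower (Il11ra1, the IL-11 receptor chain, at 15.9 ± 0.49 against 49.2 ± 0.42 CPM) and none higher, with 4 lower and none higher at an unadjusted p below 0.05. Il11ra1 shares 24.0% of its windows with near-identical genes and its count is uncertain. The kinases that gp130 uses differed less than the receptors: Jak1 stood at 115.4 and 112.6 CPM in P1 GFP+ against 193.9 and 184.5 CPM in P1 GFP- cells, and Jak2 at 71.0 and 59.2 against 70.0 and 69.1 CPM. Of the other Stat factors, Stat4 was higher in P1 GFP+ cells (1.37 ± 0.05 against 0.37 ± 0.12 CPM) and Stat6 was lower. The Stat4 call was lost without P1 GFP+ replicate 1 or 2 (adjusted p = 0.0473 and 0.0406, edgeR). At P6 none of the 4 passed the test with edgeR, with 2 lower at an unadjusted p below 0.05 and 2 called lower by DESeq2.

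**Figure D5:**
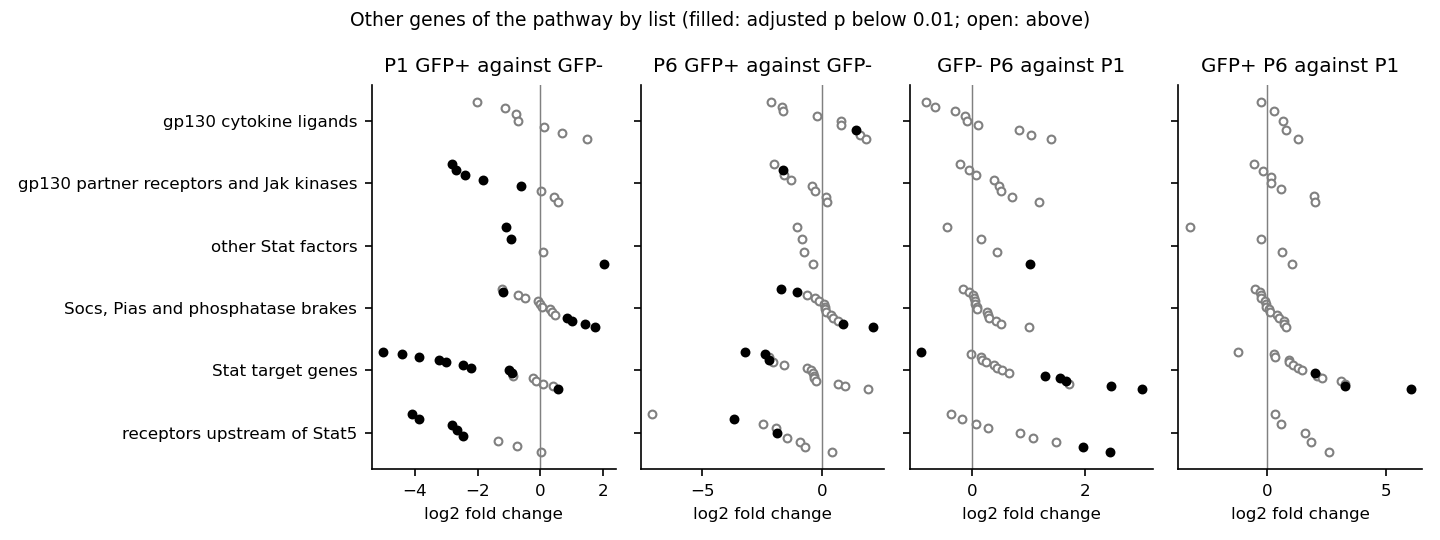
Log2 fold change of each gene of the 6 pathway lists that passed the filter, in the 4 comparisons, with filled points below an adjusted p of 0.01 and open points above it. At P1 the filled points of receptors and most Stat target genes lie below 0 and those of the Socs, Pias and phosphatase list mostly above it, and in GFP+ cells between ages only 3 Stat target genes are filled.

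The brakes had calls in both directions. Of 14, 4 were higher in P1 GFP+ cells (Socs6, Socs7, Pias4 and Ptpn6) and 1 was lower (Pias3). At P6, 2 were higher (Socs6 and Socs7) and 2 lower (Socs1 and Pias3). Socs6, a Socs protein that acts on receptor tyrosine kinases, was at 170.4 ± 2.80 against 55.4 ± 6.97 CPM at P1 (log2 fold change 1.72 ± 0.11, adjusted p = 9.16e-05, edgeR) and at 258.7 ± 20.5 against 58.9 ± 6.13 CPM at P6 (2.13 ± 0.19, adjusted p = 0.00168, edgeR), where the call was lost without P6 GFP- replicate 1 (0.0138) or 2 (0.0289). Socs7 was at 111.4 ± 4.84 against 60.8 ± 3.13 CPM at P6 (0.87 ± 0.15, adjusted p = 0.00962, edgeR), which missed the threshold with library totals (0.0117) and without P6 GFP- replicate 1 (0.105) or 2 (0.10). Without P6 GFP+ replicate 2 the P6 log2 fold change was 2.23 for Socs6 and 0.85 for Socs7. Ptpn6, a phosphatase of cytokine receptors, was at 34.5 ± 4.21 against 13.98 ± 0.51 CPM at P1 (1.4 ± 0.12, adjusted p = 0.000268, edgeR).

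Of the 16 Stat target genes, most calls were of lower levels in P1 GFP+ cells and of higher levels at P6. Of 15 that passed the filter, 9 were lower and 1 higher in P1 GFP+ than in P1 GFP- cells, led by Icam1, an adhesion molecule, at 0.62 ± 0.14 against 22.2 ± 1.26 CPM, and by the growth regulator Myc at 1.25 ± 0.28 against 27.9 ± 3.13 CPM. At P6 3 were lower (Icam1, Cebpd and Myc). Icam1 was at 5.13 ± 3.59 against 47.8 ± 5.27 CPM, and the transcription factor gene Cebpd at 4.52 ± 0.99 against 23.5 ± 4.24 CPM. In GFP- cells 5 rose with age, among them Bcl6, a repressor that Stat5 is known to control, from 2.91 ± 1.42 to 20.8 ± 2.14 CPM (log2 fold change 3.01 ± 0.32, adjusted p = 0.00166, edgeR). Cebpd rose there from 4.86 ± 1.20 to 23.5 ± 4.24 CPM. Ccnd1, the cyclin D1 gene, fell from 104.9 ± 3.39 to 48.9 ± 5.92 CPM (-0.91 ± 0.13, adjusted p = 0.00494, edgeR), and 19.7% of its windows are shared with Oraov1. These calls were lost without P6 GFP- replicate 1 for Bcl6, Cebpd and Ccnd1, and without replicate 2 for Bcl6 and Ccnd1, at adjusted p between 0.0123 and 0.0283 (edgeR). At P6 between fractions, those of Icam1 and Cebpd were lost without either GFP- library, at adjusted p between 0.0227 and 0.0311 (edgeR). Their log2 fold changes were -3.20 and -2.38, and -4.19 and -2.60 without P6 GFP+ replicate 2.

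In GFP+ cells, edgeR called 3 pathway genes higher at P6 than at P1, all of them Stat target genes, while DESeq2 called 14 higher, 9 of them Stat target genes, and 24 were higher at an unadjusted p below 0.05 in edgeR. Bcl3, an I kappa B family coregulator, stood at 0.17 and 0.16 CPM at P1 and at 12.7 and 9.21 CPM at P6, with a log2 fold change of 6.07 ± 0.38 (SE, adjusted p = 0.00259, edgeR). Bcl6 stood at 1.57 and 1.37 CPM at P1 and at 13.3 and 13.8 CPM at P6 (3.28 ± 0.24, adjusted p = 0.00288, edgeR). Junb, an immediate early gene as well as a Stat target, stood at 88.6 and 87.0 CPM at P1 and at 349.7 and 310.5 CPM at P6 (2.00 ± 0.14, adjusted p = 0.00286, edgeR). The calls of Bcl6 and Junb were lost without P1 GFP+ replicate 2 (adjusted p = 0.0167 and 0.0197). Without P6 GFP+ replicate 2 the log2 fold change was 6.31 for Bcl3, 3.28 for Bcl6 and 2.12 for Junb. Like Bcl6, Junb and Bcl3 also had higher levels at P6 in GFP- cells. Junb was there at 178.2 CPM at P1 and 456.7 CPM at P6 (1.55 ± 0.22, adjusted p = 0.00505, edgeR). Bcl3 was there at 1.02 and 2.93 CPM (1.71 ± 0.32, adjusted p = 0.0131, edgeR), short of the threshold. The number of pathway genes called higher was 21 with P6 GFP+ replicate 2 left out and 28 with replicate 1 left out, when the spread comes from the P1 pair alone.

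Of the receptors upstream of Stat5, 5 of the 8 that passed the filter were lower in P1 GFP+ cells and none higher, and 2 of 9 were lower at P6 (Ghr and Lepr). Lepr, the leptin receptor gene, stood at 3.6 and 12.8 CPM in P6 GFP+ and at 109.9 and 101.2 CPM in P6 GFP- cells (log2 fold change -3.68 ± 0.55, adjusted p = 0.00706, edgeR), a call lost without P6 GFP- replicate 1 (0.0185) or 2 (0.0303). The value was -4.85 without P6 GFP+ replicate 2. In GFP- cells it rose between P1 and P6 by 2.44 ± 0.13 (adjusted p = 0.000132, edgeR), from 20.8 and 23.7 CPM. Csf2rb, a receptor chain of blood cell cytokines, was at 0.19 ± 0.18 against 3.04 ± 1.16 CPM at P1 (-4.07 ± 0.66, adjusted p = 0.0032, edgeR, and 0.0170 without P1 GFP+ replicate 1), and 6.41% of its windows are shared with Csf2rb2. The receptor for growth hormone, Ghr, whose signal Socs2 is known to dampen, stood at 12.5 and 10.1 CPM in P1 GFP+ cells, 96.4 and 73.7 CPM in P1 GFP- cells, 11.7 and 19.8 CPM in P6 GFP+ cells and 54.3 and 60.8 CPM in P6 GFP- cells. In the libraries in which Socs2 was high, Ghr was thus low, as were Lifr and Il6st. A relation of Ghr to Socs2 was not tested.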

How the data were processed

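The 8 RNA-seq libraries, from sorted GFP+ or GFP- cells of P1 and P6 cochleas, were grouped by the age and fraction of their labels. The files hold unnormalized counts for each Ensembl gene. The authors made these counts by aligning paired reads to mm9 with TopHat (version 1.4.0 in their processing notes) and counting with HTSeq, and the counting mode and strand setting are not given in the sources used here. Of the reads listed, 64.7% to 76.2% fell on genes, and only these entered library sizes and tests. The labels do not say that replicates came from separate animals, so p-values measure the spread between libraries, which may be technical. Library totals set the precision of low genes.

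Each comparison was fitted on its 4 libraries with edgeR 4.0.16 in R 4.3.3 (filterByExpr with minimum count 10 and minimum total 15, TMM, quasi-likelihood test, Benjamini-Hochberg adjustment over all genes tested). A call is an adjusted p below 0.01. The SE of a log2 fold change was taken from it and its F statistic. In simulated counts for the 4 comparisons (17760 genes at P6 between fractions, for example), 92% to 98% of genes changed by 1.5 on the log2 scale were called. This share holds for the spread set in the simulation, which was the same for all genes and comparisons. It was below the fitted common dispersion, the spread shared by all genes, at P6 between fractions (0.048) and in GFP+ cells between ages (0.041). The share at these fitted spreads, or at the spread of each measured gene, was not tested. At P6 between fractions, Lifr (-1.80) and Il6st (-1.64) differed by more than 1.5 and were not called by edgeR. Alternatives were DESeq2 1.42.0, other scalings, no filter, all libraries in one fit, a replicate block and leaving out each library. Of the 36536 genes, 34391 had a symbol, exon length and position in the NCBIM37 annotation. Tables and figures were made with Python 3.11.15.

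The members and the pathway and marker lists were chosen with earlier results of these data known. Of the pathway genes, the text names the 3 per direction with the largest log2 fold change among those called, with a mean of at least 1 CPM in the higher group. Further pathway genes are named where a count was 5 or fewer, and Cntf, Lif, Jak1, Jak2 and Ghr were added after their values were seen. The likeness search used genes with a mean of at least 5 CPM in some group. A few of the genes these rules pick are not reported here.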

Additional observations from a re-analysis of the deposited data

Results flagged for a closer look

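Each value here is a difference between log2 ratios of mean CPM, listed because every library of one comparison lay on one side and every library of the other on the opposite side. None of these differences was tested, and the share of all genes with such a pattern was not counted. For Stat5a the log2 ratio of GFP+ to GFP- cells was -1.19 at P1 and 0.65 at P6, a difference of 1.84, in the libraries that chose the gene. For Bcl3 the ratio was -2.61 at P1 and 1.9 at P6, a difference of 4.51, and Bcl3 was at or below 1.11 CPM in all 4 P1 libraries. For Stat4 it was 1.9 at P1 and -0.79 at P6, a difference of -2.69, with at most 0.24 CPM in any P6 library. Between P1 and P6 the log2 ratio of Ptpn6 was 0.24 in the GFP- fraction and -0.63 in GFP+ cells, a difference of -0.86. That of Ctf1 was -0.27 in the GFP- fraction and 0.56 in GFP+ cells, a difference of 0.84.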

How the results depend on the processing

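At P1 between fractions, 1 member was higher and 3 lower under all alternatives run but an adjusted p below 0.05, which gave 4 lower. Unless said otherwise, the cause of a change below was not tested. At P6 between fractions the number of members lower, 1 with edgeR, was 3 with DESeq2, 3 with no filter on low counts, 2 with all 8 libraries in one fit and 2 at an adjusted p below 0.05. It ranged from 0 to 3 with single libraries left out, and that of members higher from 0 to 1. In GFP- cells between ages 3 members were higher, 5 with no filter and from 0 to 4 with single libraries left out.

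For the pathway genes at P1, the 6 higher became 11 with no filter, 13 at an adjusted p below 0.05 and 3 to 12 with single libraries left out, and the 22 lower became 12 to 28. At P6 the 3 higher became 1 with library totals, 5 with DESeq2, 6 with no filter, 6 with all 8 libraries, 8 at an adjusted p below 0.05 and 0 to 8 with single libraries left out. The 8 lower there became 4, 15, 19, 16 and 21 in the same order and 0 to 23 with single libraries left out. In GFP- cells the 8 higher became 5 with library totals, 15 with DESeq2, 18 with no filter, 16 at an adjusted p below 0.05 and 1 to 15 with single libraries left out. The 1 lower became 2 with no filter, 0 with all 8 libraries and 0 to 4 with single libraries left out. In GFP+ cells between ages the 3 higher became 14 with DESeq2, 19 with no filter, 13 with all 8 libraries, 16 at an adjusted p below 0.05 and 1 to 28 with single libraries left out. The 0 lower became 2 with DESeq2, 2 with no filter, 2 with all 8 libraries, 2 at an adjusted p below 0.05 and 0 to 7 with single libraries left out. A group left with 1 library is assumed to vary like the other.

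The sign of small log2 fold changes turned. With library totals, Stat3 was at -0.052 at P1 between fractions and at -0.019 in GFP+ cells between ages, and Lifr at -0.17 in GFP- cells between ages. With single libraries left out, Stat3 ranged from -0.061 to 0.17 at P1 and from -0.035 to 0.19 in GFP+ cells. Lifr ranged from -0.22 to 0.26 in GFP- cells and from -0.65 to 1.37 in GFP+ cells. Il6st ranged from -0.16 to 0.090 in GFP- cells and from -0.71 to 0.42 in GFP+ cells, and Socs2 from -0.11 to 0.31 in GFP+ cells.

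The correlation over genes of same-numbered deviations was 0.03 at P1, 0.06 at P6, -0.32 in GFP- cells between ages and -0.14 in GFP+ cells between ages. These values do not tell if same-numbered GFP+ and GFP- libraries came from the same animals, which was not tested. With a replicate block the pathway genes higher numbered 1 at P6 and 5 in GFP+ cells between ages. With the crossed pairing, added after the data were seen, 17 pathway genes were higher and 2 lower in GFP- cells, and 4 were higher and 1 lower in GFP+ cells. No member's call changed with the replicate block. Depth limits the genes under about 1 CPM, such as Cntf, Stat4 and Csf2rb.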
